A study of Mus musculus with 10 samples.

Results

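The 44 genes described here encode the proton pump of the lysosome, the enzymes it activates, their cofactors and proteins of the lysosomal membrane. They were taken by symbol from a list whose rule uses no measured value, although the list was proposed with earlier results of these data known. All 44 were found among the 12803 genes of the expression table. The list holds 16 subunits and accessory proteins of the vacuolar proton pump (the Atp6 genes), 20 enzymes, 3 luminal cofactors and 5 membrane proteins. RNA was sequenced from muscle stem cells (satellite cells) of the limb muscles of young male C57BL/6 mice, gated as negative for CD45, CD31 and Sca1 and positive for VCAM (CD45- CD31- Sca1- VCAM+). The study asked how Tubastatin A, which inhibits the cytoplasmic deacetylase HDAC6, affects the quiescent state of these cells. Fresh cells were taken at 0 h (n = 3), and other cells were cultured for 24 h with the solvent DMSO (vehicle, n = 3) or with 40 µM Tubastatin A (n = 4), each library from 1 animal. Both cultures were in Ham's F-10 medium with 10% horse serum. The fresh libraries carry the treatment label vehicle at 0 h. Time in culture, medium and serum separate both cultured groups from the fresh group and cannot be told apart there.

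Lysosomes break down material delivered by endocytosis and autophagy. The V-ATPase acidifies them: its V1 sector hydrolyses ATP on the cytosolic side, and its V0 sector carries protons through the membrane into the lumen, where proteases, glycosidases and lipases work at acid pH. Many lysosomal genes are targets of the transcription factors TFEB and TFE3, which bind a short promoter element, the CLEAR element, built around the letters CACGTG. In muscle stem cells, autophagy is known to take part in keeping the quiescent state.

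Levels are given as RPKM (reads per kilobase of exon, relative to a scaled library size). The length is that of all annotated exons of a gene joined, so ranks between genes also depend on the annotation. A change is the difference between 2 group means of log2(RPKM + 1). A standard error (SE) follows it, together with a p from a limma model of the 3 groups, adjusted by Benjamini-Hochberg over 12803 genes. A gene was called higher or lower at an adjusted p under 0.05. The pseudocount of 1 RPKM understates the change of genes with low levels.

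Promoter sequences are shown first because the CACGTG element recurs among these genes. Promoters of 36 of the 44 genes were matched in RefSeq (GRCm38.p6, 250 bases before to 50 after the start). Atp6v1b2, Atp6v1c1, Atp6v1g1, Atp6v1h, Atp6v0a2, Ctsb, Asah1 and Npc1 had no entry. CACGTG, which reads the same on both strands, occurred in 15 of the 36 promoters (41.7%), against 1193 of 9980 promoters of genes in the table (12.0%). The share was 10 of 18 for enzymes, 4 of 11 for pump genes, 0 of 3 for cofactors and 1 of 4 for membrane proteins. The longer form TCACGTGA, which contains CACGTG, was in 6 of 36 (16.7%) against 2.25% of all, and the full palindromic CLEAR element, which contains both, was in 0 of 36 against 0.792% of all. Of 22 copies of CACGTG in these promoters, 18 lay within 150 bases before to 50 after the start, and 5 genes had more than 1 copy. The stretches below show the 4 copies of Lamp1 and examples from pump, enzyme and membrane genes whose values are described later. They run 5′ to 3′ on the strand of the gene, and capitals mark each CACGTG.

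Lamp1 (chr8:13159080-13159160, plus strand): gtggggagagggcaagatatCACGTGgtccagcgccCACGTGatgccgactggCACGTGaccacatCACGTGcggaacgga

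Atp6v0b (chr4:117887330-117887385, minus strand): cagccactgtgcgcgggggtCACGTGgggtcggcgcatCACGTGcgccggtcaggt

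Atp6v1a (chr16:44139365-44139410, minus strand): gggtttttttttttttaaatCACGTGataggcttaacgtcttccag

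Lgmn (chr12:102439116-102439161, minus strand): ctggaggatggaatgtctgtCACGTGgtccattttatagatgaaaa

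Glb1 (chr9:114401010-114401055, plus strand): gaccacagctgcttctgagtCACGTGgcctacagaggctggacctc

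Gaa (chr11:119267803-119267848, plus strand): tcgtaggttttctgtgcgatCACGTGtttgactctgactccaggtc

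Ctsf (chr19:4855066-4855111, plus strand): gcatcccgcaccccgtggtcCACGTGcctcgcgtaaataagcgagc

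The Lamp1 stretch holds 4 copies, the first starting 61 and the last 15 bases before the annotated start, and the Atp6v0b stretch holds 2. In the Atp6v1a stretch the flanking letters extend the element to TCACGTGA. With Tubastatin A against vehicle, the median change was 1.33 over the 15 genes with CACGTG (15 called higher) and 0.98 over the 21 without (19 called higher). Over all genes, 12.4% of those called higher with Tubastatin A and 11.8% of the others held the element. A match of letters is a description and shows no binding.

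On the authors' scale, most of the 44 genes fell in culture with vehicle and stood higher with Tubastatin A than with vehicle. With vehicle against fresh, 28 were lower, 3 higher and 13 did not pass, with a median change of -0.67. Over all genes tested, 67.0% were called in that comparison, 35.0% lower and 32.0% higher, and the median was -0.03. The libraries of the 2 groups did not overlap for 28 lower and 3 higher genes of the 44, against 35.8% and 31.8% of all genes. With Tubastatin A against vehicle, 41 were higher, 1 lower and 2 did not pass, with a median of 1.07, against 59.3% of all genes called (29.6% higher, 29.7% lower) and a median of 0.02. The rise was called and at least 2-fold for 23 of the 44, against 8.54% of all genes. In 41 of the 44, every Tubastatin A library was above every vehicle library, against 34.8% of all genes, and in 2 (Gusb and Cd63) below, against 33.8%. With Tubastatin A against fresh, 20 were higher, 10 lower and 14 did not pass, with a median of 0.17, against 64.9% of all genes called (29.8% higher, 35.2% lower). There, 18 were higher and 9 lower without overlap, against 28.0% and 33.3% of all genes. The comparisons share libraries, so their counts are not independent of each other. In bulk RNA, fewer cells of a type and less RNA per cell cannot be told apart.

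**Figure D1:**
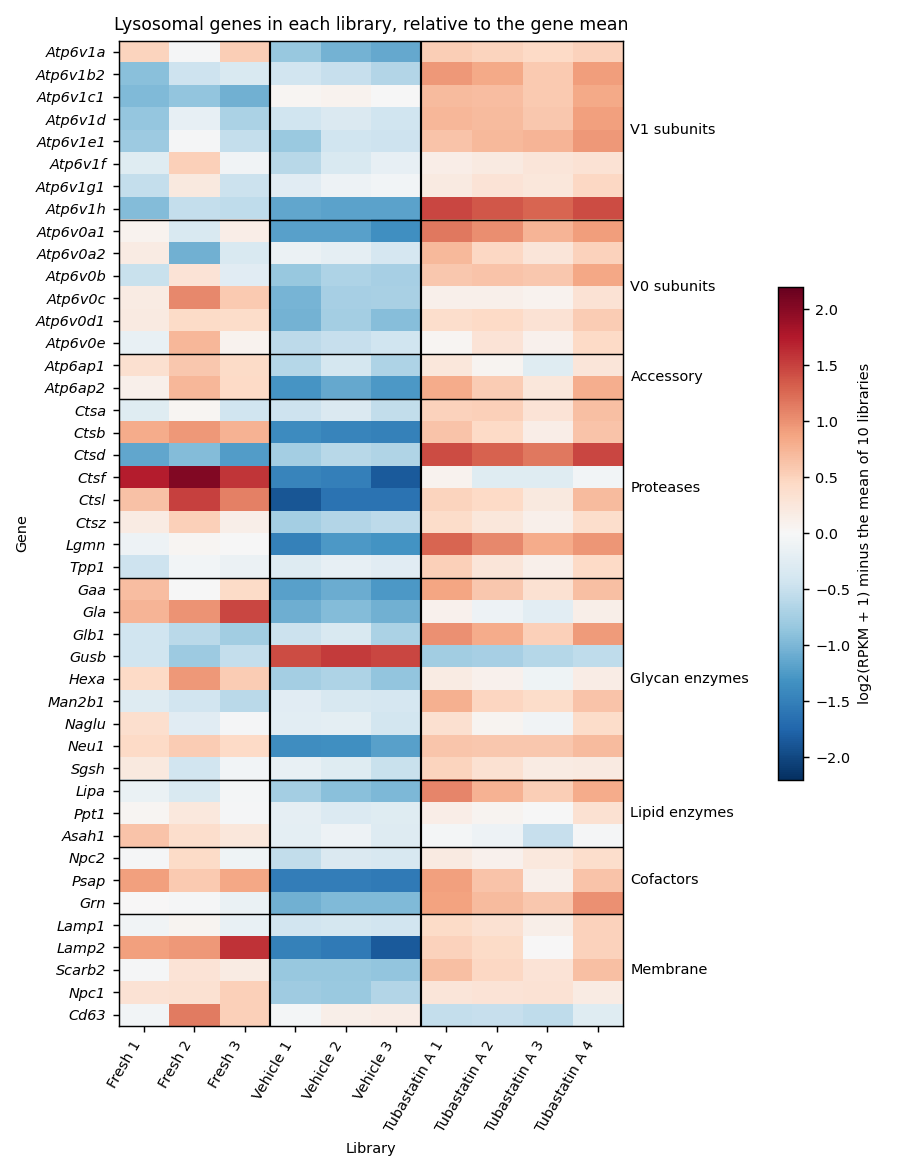
Each row is 1 of the 44 genes and each column 1 of the 10 libraries, and colour gives log2(RPKM + 1) minus the mean of the gene over the 10 libraries (red above, blue below). Vehicle columns are mostly blue and Tubastatin A columns mostly red, and the Gusb row runs the other way.

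The scale of the table matters for the 2 comparisons with fresh cells. Reads in the table over the scaled library size lay between 1.39 and 1.41 in fresh libraries and between 0.8287 and 0.928 in cultured ones. If every library is instead scaled to an equal sum, the median of all genes shifts by 0.365 for vehicle against fresh and by 0.464 for Tubastatin A against fresh. Single genes can shift by more, and Atp6v1g1 went from 0.124 to 0.722 and from 0.559 to 1.278 in these 2 comparisons. The calls over all genes then change from 4096 higher and 4484 lower to 6280 and 2894 in the former comparison, and from 3811 and 4503 to 7006 and 2486 in the latter. Under that scaling 12 of the 44 genes were higher and 20 lower with vehicle against fresh, and 36 higher and 2 lower with Tubastatin A against fresh. For Tubastatin A against vehicle the shift was 0.0711, and the calls of all 44 genes were the same. Directions against fresh below are on the authors' scale, and called directions of the 44 genes that turned under the other scale are named. For all other genes, changes against fresh are given on the authors' scale only. With vehicle against fresh, Atp6v1f, Naglu, Sgsh and Cd63, which did not pass on either scale, also changed sign (to 0.16, 0.23, 0.0641 and 0.14).

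All 16 pump genes rose with Tubastatin A over vehicle, by 0.44 to 2.56. Of the 8 V1 subunits, 1 was higher, 2 lower and 5 did not pass with vehicle against fresh, and 6 were higher and 2 did not pass with Tubastatin A against fresh. The largest rise was that of Atp6v1h, the regulatory H subunit of V1. Its RPKM were 10.6, 14.6 and 14.3 in fresh libraries, 9.09, 8.90 and 8.88 with vehicle, and 61.3, 56.5, 53.2 and 59.6 with Tubastatin A. All 4 Tubastatin A libraries were thus far above the other 6, and the 3 vehicle libraries were the lowest. The change of Atp6v1h was 2.56 (SE 0.12, adjusted p = 9.8e-09) against vehicle, a rise exceeded by 79 genes of the table, and 2.06 (SE 0.12, adjusted p = 3.2e-08) against fresh. Its fall of 0.49 with vehicle (SE 0.13, adjusted p = 0.0041) was not kept under equal sums, where the value was 0.06.

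Atp6v1a, the catalytic A subunit, measured 51.3, 35.5 and 53.3 RPKM in fresh cells, 20.0, 17.1 and 16.2 with vehicle and 53.0, 51.4, 49.3 and 52.0 with Tubastatin A. Vehicle libraries were the lowest, and the other groups overlapped. It fell by 1.33 in vehicle (SE 0.15, adjusted p = 8.3e-06) and was 1.49 higher with Tubastatin A than with vehicle (SE 0.14, adjusted p = 3.1e-06). Its partner Atp6v1b2, the B subunit of the ring, was at 21.1 ± 4.52 RPKM in fresh cells, 21.5 ± 1.67 with vehicle and 56.4 ± 6.37 with Tubastatin A (SD, n = 3, 3 and 4). Only its comparisons with Tubastatin A passed, with a rise of 1.35 over vehicle (SE 0.15, adjusted p = 1.2e-05). The A and B subunits alternate in the ring in equal numbers. Whether their changes in vehicle differed was not tested.

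Atp6v1c1, the C subunit that joins V1 to V0 on assembly, had 12.0, 13.0 and 11.2 RPKM in fresh libraries, 25.2, 25.9 and 24.3 with vehicle and 40.0, 39.5, 36.9 and 44.6 with Tubastatin A. The 3 groups did not overlap, and Atp6v1c1 rose by 1.002 in vehicle, by 0.66 from vehicle to Tubastatin A and by 1.66 from fresh to Tubastatin A (SE 0.11, 0.10 and 0.10). Atp6v1d, a subunit of the central rotor, rose by 1.13 over vehicle and Atp6v1e1, of the peripheral stalk, by 1.32. Atp6v1f rose by 0.61 (SE 0.17, adjusted p = 0.011). Atp6v1g1 had the smallest rise, 0.44 (SE 0.17, adjusted p = 0.049), and its vehicle libraries (157, 172 and 180 RPKM) lay below the Tubastatin A libraries (214, 229, 221 and 254) but within the fresh range of 130 to 216. Atp6v1g1 had the highest mean RPKM of the V1 genes in every group, and its call was lost when any of the vehicle or Tubastatin A libraries was left out (adjusted p between 0.067 and 0.14).

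Levels of the 8 V1 subunit genes were closer together with Tubastatin A. Within a library, the highest was 14.2 ± 2.24 times the lowest in fresh cells, 18.9 ± 1.51 times with vehicle and 7.44 ± 0.422 times with Tubastatin A. The groups of this ratio did not overlap between Tubastatin A (6.92 to 7.92) and the other groups (12.4 to 20.2). Its size also depends on the annotated exon length of each gene, from 1063 bases for Atp6v1f to 9746 for Atp6v1h. No test was made of the ratio.

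**Figure D2:**
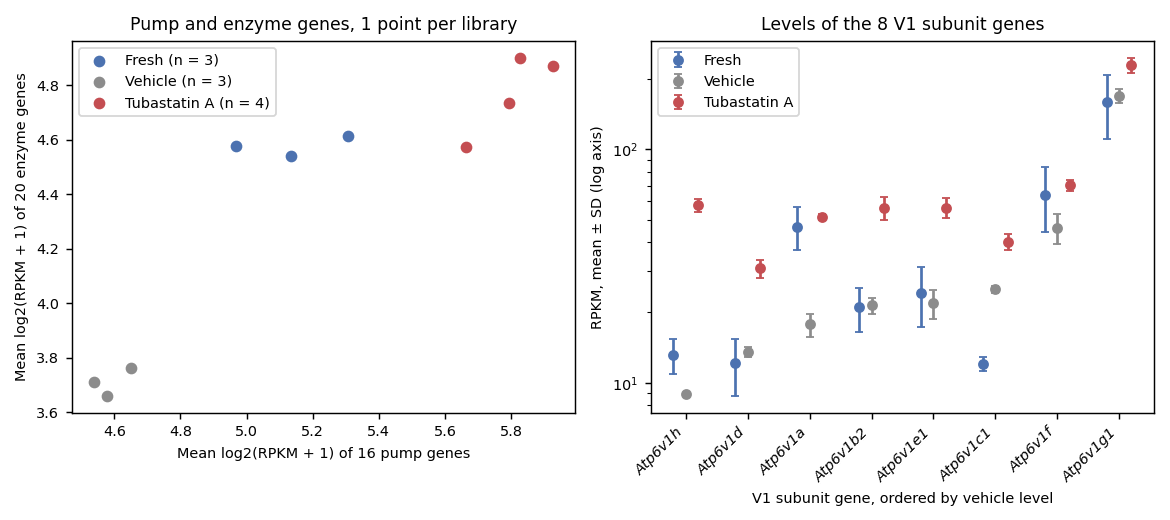
Left: the mean log2(RPKM + 1) of the 16 pump genes (x axis) and of the 20 enzyme genes (y axis), 1 point per library. Right: mean RPKM ± SD of each V1 subunit gene by group on a log axis. Vehicle libraries are lowest on both axes at left, and the red points at right span the narrowest range.

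Of the 6 V0 genes, 5 fell in vehicle and 1 did not pass, and all 6 rose with Tubastatin A over vehicle. The falls of Atp6v0b and Atp6v0e did not pass under equal sums. Atp6v0a1, an isoform of the large membrane subunit that also steers the pump to its compartment, measured 9.76, 7.08 and 10.2 RPKM in fresh cells, 3.46, 3.46 and 2.99 with vehicle and 21.7, 19.7, 16.1 and 18.4 with Tubastatin A. Its groups did not overlap. It fell by 1.21 (SE 0.15, adjusted p = 2.0e-05) and then stood 2.21 above vehicle (SE 0.14, adjusted p = 1.3e-07). The other a isoform of the set, Atp6v0a2, varied most of all 44 genes in fresh cells, with 17.8, 6.98 and 12.2 RPKM. Vehicle values of 14.1, 13.4 and 11.9 fell inside that range, and the rise with Tubastatin A was 0.71 (SE 0.23, adjusted p = 0.018), which did not pass without vehicle replicate 3.

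Atp6v0c encodes the main subunit of the proton-carrying ring and Atp6v0b a related ring subunit. Atp6v0c had 57.6, 107 and 76.5 RPKM in fresh cells, 24.5, 30.3 and 30.4 with vehicle and 55.0, 55.1, 53.6 and 63.8 with Tubastatin A. All vehicle libraries were below the others, and fresh and Tubastatin A libraries overlapped. Atp6v0c fell by 1.43 in vehicle (SE 0.19, adjusted p = 3.4e-05), rose by 0.98 with Tubastatin A over vehicle (SE 0.18, adjusted p = 5.3e-04) and was lower than fresh by -0.45 (SE 0.18, adjusted p = 0.043), a difference that did not pass with median-of-ratios scaling and turned to 0.26 under equal sums. The genome holds 2 pseudogenes named after this gene, whose reads may not be separable from it. Atp6v0b had 48.9, 85.4 and 57.6 RPKM in fresh cells, 38.1, 42.6 and 41.1 with vehicle and 104, 107, 105 and 125 with Tubastatin A. Its groups did not overlap, and it rose by 1.42 over vehicle (SE 0.17, adjusted p = 1.8e-05). Atp6v0d1, which couples the rotor to the ring, and Atp6v0e both fell in vehicle and rose over vehicle with Tubastatin A (by 1.33 and 0.73), and neither passed against fresh.

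Both accessory proteins were lower in vehicle. Atp6ap2, the prorenin receptor that takes part in assembly of the pump, had 92.1, 142 and 115 RPKM in fresh cells, 34.0, 38.4 and 34.8 with vehicle and 150, 125, 101 and 148 with Tubastatin A. Fresh and Tubastatin A libraries overlapped, well above vehicle. Its change was -1.66 in vehicle (SE 0.18, adjusted p = 7.0e-06) and 1.83 from vehicle to Tubastatin A (SE 0.17, adjusted p = 2.9e-06). Atp6ap1 went from 87.8 ± 7.58 to 42.6 ± 4.84 RPKM with vehicle and to 67.6 ± 10.9 with Tubastatin A. It was called lower than fresh by -0.38 with Tubastatin A (adjusted p = 0.034), which did not pass with median-of-ratios scaling and became 0.33 under equal sums.

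Of the 20 enzymes, 12 were lower, 2 higher and 6 did not pass with vehicle, and 18 were higher, 1 lower and 1 did not pass with Tubastatin A over vehicle. The 8 proteases rose without exception over vehicle, by 0.57 to 2.38. Cathepsin D (Ctsd), the major aspartic protease of lysosomes, had 80.1, 90.8 and 74.8 RPKM in fresh cells, 105, 116 and 112 with vehicle and 480, 436, 396 and 494 with Tubastatin A. Its groups did not overlap. With Tubastatin A its mean (451 ± 44.6 RPKM) was the highest of the 44 genes, although Psap was above it in replicate 1 (492 RPKM). Ctsd rose by 0.44 in vehicle (SE 0.14, adjusted p = 0.013), by 2.01 from vehicle to Tubastatin A (SE 0.13, adjusted p = 1.2e-07) and by 2.45 over fresh (SE 0.13, adjusted p = 1.6e-08), a rise exceeded by 59 genes. Legumain (Lgmn), a cysteine protease that cuts after asparagine and processes cathepsins, had 18.02, 20.0 and 19.4 RPKM in fresh cells, 6.31, 7.55 and 7.26 with vehicle and 48.6, 41.5, 35.0 and 39.3 with Tubastatin A. Its libraries also fell into 3 separate ranges, with a change of -1.33 in vehicle and 2.38 from vehicle to Tubastatin A (SE 0.13 and 0.12, adjusted p = 2.3e-06 and 2.1e-08).

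Several cysteine cathepsins fell in vehicle. Cathepsin F (Ctsf) had 19.9, 24.8 and 17.7 RPKM in fresh cells, 1.31, 1.21 and 0.757 with vehicle and 5.64, 4.22, 4.24 and 5.01 with Tubastatin A. It fell by 3.38 (SE 0.16, adjusted p = 6.7e-09), the largest fall among the 44, and after a rise of 1.47 over vehicle still stood 1.91 below fresh (change -1.91, SE 0.15, adjusted p = 5.2e-07). Cathepsin L (Ctsl) went from 86.2, 157 and 119 RPKM to 14.0, 17.0 and 17.1 with vehicle and 77.1, 74.3, 63.6 and 89.2 with Tubastatin A. It changed by -2.80 and 2.17 (SE 0.20 and 0.19). Cathepsin B (Ctsb) had 186, 205 and 180 RPKM in fresh cells, 39.7, 37.8 and 36.9 with vehicle and 163, 143, 116 and 163 with Tubastatin A, with changes of -2.29 and 1.90 (SE 0.14 and 0.13). For Ctsl and Ctsb, vehicle libraries were far below all others, and the Tubastatin A groups were called lower than fresh (-0.63 and -0.39), which turned to 0.09 and 0.33 under equal sums. Ctsz, an exopeptidase with the highest mean RPKM of the proteases in fresh cells, had 416 ± 63.0, 216 ± 12.0 and 417 ± 39.1 RPKM in the 3 groups. Ctsa, the protective protein of neuraminidase and galactosidase, and Tpp1, a tripeptidyl peptidase, did not pass in vehicle (-0.22 and -0.02, which became 0.35 and 0.54 and passed under equal sums) and rose by 0.94 and 0.57 with Tubastatin A over vehicle.

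**Figure D3:**
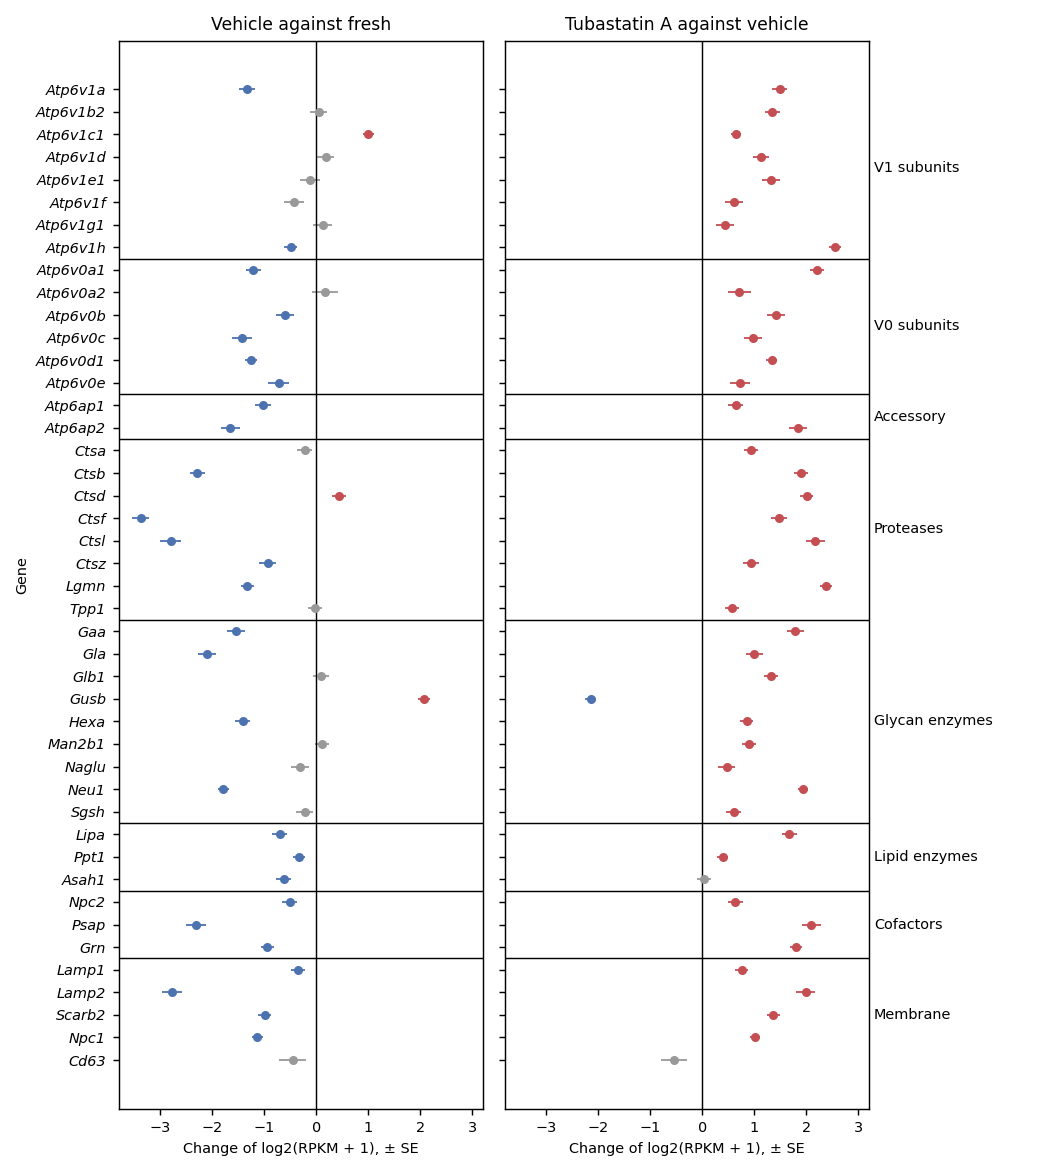
Change of log2(RPKM + 1) ± SE for each gene, vehicle against fresh at left and Tubastatin A against vehicle at right, with red points called higher, blue points called lower and grey points not passing. In the right panel all points but those of Gusb, Asah1 and Cd63 are red.

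Among the 9 enzymes that degrade glycans, 8 rose and 1 fell with Tubastatin A over vehicle. Neuraminidase 1 (Neu1), which removes sialic acid, was among the most even: 12.7, 13.8 and 12.7 RPKM in fresh cells, 2.90, 2.98 and 3.39 with vehicle and 14.4, 14.3, 14.2 and 15.4 with Tubastatin A. Its change was -1.79 in vehicle (SE 0.10, adjusted p = 3.1e-08) and 1.93 from vehicle to Tubastatin A (SE 0.10, adjusted p = 2.0e-08). Tubastatin A libraries lay just above fresh ones, a difference of 0.14 that did not pass (adjusted p = 0.21). Acid alpha-glucosidase (Gaa), which degrades glycogen, had 67.5, 41.3 and 56.2 RPKM in fresh cells, 17.8, 19.1 and 16.8 with vehicle and 76.8, 63.1, 52.9 and 66.2 with Tubastatin A. Vehicle again lay below both other groups, with changes of -1.54 and 1.79 (SE 0.18 and 0.17).

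Glb1, the beta-galactosidase, did not pass in vehicle (7.47 ± 0.948 and 8.06 ± 1.11 RPKM) and reached 21.7 ± 3.23 RPKM with Tubastatin A, a rise of 1.32 (SE 0.14, adjusted p = 9.2e-06). Gla, the alpha-galactosidase, had 9.69, 11.6 and 16.5 RPKM in fresh cells, 2.01, 2.27 and 2.06 with vehicle and 5.80, 4.87, 4.39 and 5.92 with Tubastatin A. The 3 groups of Gla did not overlap, and it remained below fresh by -1.10 (SE 0.16, adjusted p = 9.7e-05). Hexa, of the hexosaminidases, fell by 1.42 and rose by 0.85 over vehicle, and was called lower than fresh by -0.56, which became 0.14 under equal sums. Man2b1, an alpha-mannosidase, and the heparan sulfate enzymes Naglu and Sgsh did not pass in vehicle and rose by 0.90, 0.47 and 0.61 with Tubastatin A over vehicle, that of Naglu not passing without vehicle replicate 3 or without Tubastatin A replicate 1 or 4. Levels of Sgsh and Man2b1 were low (1.80 ± 0.281 and 5.44 ± 0.775 RPKM with Tubastatin A).

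Gusb, the beta-glucuronidase, was the exception (chr5:129989011-130003049, minus strand, GRCm38). It had 8.38, 6.37 and 7.85 RPKM in fresh cells, 33.5, 36.0 and 34.2 with vehicle and 6.54, 6.70, 7.23 and 7.69 with Tubastatin A. Vehicle libraries were all far above the others, and fresh and Tubastatin A libraries overlapped. Gusb rose by 2.07 in vehicle (SE 0.12, adjusted p = 2.8e-08) and changed by -2.15 from vehicle to Tubastatin A (SE 0.11, adjusted p = 2.5e-08). The difference of -0.08 between Tubastatin A and fresh did not pass (adjusted p = 0.55), and it became 0.55 under equal sums. Gusb was the only one of the 44 genes called lower with Tubastatin A over vehicle in this fit.

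The 3 lipid enzymes each fell in vehicle on the authors' scale. Under equal sums none of these falls passed, and that of Ppt1 turned to 0.24. Lipa, the acid lipase of cholesteryl esters, had 3.70, 3.10 and 4.07 RPKM in fresh cells, 2.10, 1.75 and 1.64 with vehicle and 9.90, 7.81, 6.58 and 8.12 with Tubastatin A. Its groups did not overlap, with a rise of 1.68 over vehicle (SE 0.14, adjusted p = 1.3e-06). Ppt1, which removes palmitate from proteins, rose by 0.39 (SE 0.11, adjusted p = 0.0097). Acid ceramidase (Asah1) had 76.0, 64.4 and 58.6 RPKM in fresh cells, 42.1, 45.2 and 40.2 with vehicle and 47.7, 44.96, 34.3 and 48.1 with Tubastatin A. Both cultures overlapped below the fresh libraries: the fall in vehicle was 0.62 (SE 0.15, adjusted p = 0.0026), and Tubastatin A differed from vehicle by 0.03 (SE 0.14, adjusted p = 0.87).

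All 3 luminal cofactors fell in vehicle and rose with Tubastatin A over vehicle, but the fall of Npc2 turned to 0.0654 under equal sums. Psap, the precursor of the saposins that present lipids to their enzymes, had 496, 395 and 474 RPKM in fresh cells, 91.3, 91.5 and 88.8 with vehicle and 492, 407, 287 and 406 with Tubastatin A. Vehicle libraries lay far below the others, and Tubastatin A replicate 3 was the lowest of the rest. The changes of Psap were -2.31 and 2.10 (SE 0.19 and 0.18, adjusted p = 5.8e-07 and 1.4e-06), and -0.21 against fresh did not pass (adjusted p = 0.32) but became 0.51 under equal sums, with an adjusted p of 0.018. Granulin (Grn), cut in lysosomes into granulin peptides, had 36.3, 35.4 and 32.6 RPKM in fresh cells, 16.8, 17.96 and 18.1 with vehicle and 68.2, 59.3, 54.9 and 73.6 with Tubastatin A. Its 3 groups were apart, and its rise over vehicle was 1.79 (SE 0.11, adjusted p = 1.3e-07). Npc2, the soluble cholesterol carrier, rose by 0.64 over vehicle, and the membrane protein Npc1, to which it hands cholesterol, by 1.01.

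Of the 5 membrane proteins, 4 were lower in vehicle and the same number higher with Tubastatin A over vehicle. LAMP1 and LAMP2 are the major glycoproteins that line the lysosomal membrane. Lamp2 had 71.6, 74.0 and 115 RPKM in fresh cells, 12.8, 12.1 and 9.78 with vehicle and 53.6, 50.9, 37.8 and 54.1 with Tubastatin A. The groups did not overlap, and Lamp2 changed by -2.78 and then 1.99 (SE 0.20 and 0.18), ending lower than fresh by -0.79 (adjusted p = 0.0025). Lamp1, whose promoter has the 4 copies of CACGTG shown above, had 186, 205 and 175 RPKM in fresh cells, 146, 149 and 146 with vehicle and 264, 246, 215 and 278 with Tubastatin A. It also showed no overlap between groups, with changes of -0.35 in vehicle (SE 0.14, adjusted p = 0.037), which turned to 0.24 under equal sums, and 0.76 over vehicle (SE 0.13, adjusted p = 3.1e-04). Scarb2, the receptor that carries glucocerebrosidase to lysosomes, fell by 0.995 and rose by 1.37. Cd63, a tetraspanin of late endosomes and exosomes, had 518, 1198 and 777 RPKM in fresh cells, 521, 592 and 604 with vehicle and 376, 378, 365 and 449 with Tubastatin A. All Tubastatin A libraries were the lowest, but the difference of -0.55 from vehicle did not pass (SE 0.24, adjusted p = 0.073). It passed when only these 2 groups were fitted (adjusted p = 0.0018), by voom on reads (adjusted p = 0.039) and without fresh replicate 1 or 2. Against fresh, Cd63 was lower with Tubastatin A by -1.003 (SE 0.24, adjusted p = 0.0033), and a pseudogene named after it may share its reads.

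**Figure D4:**
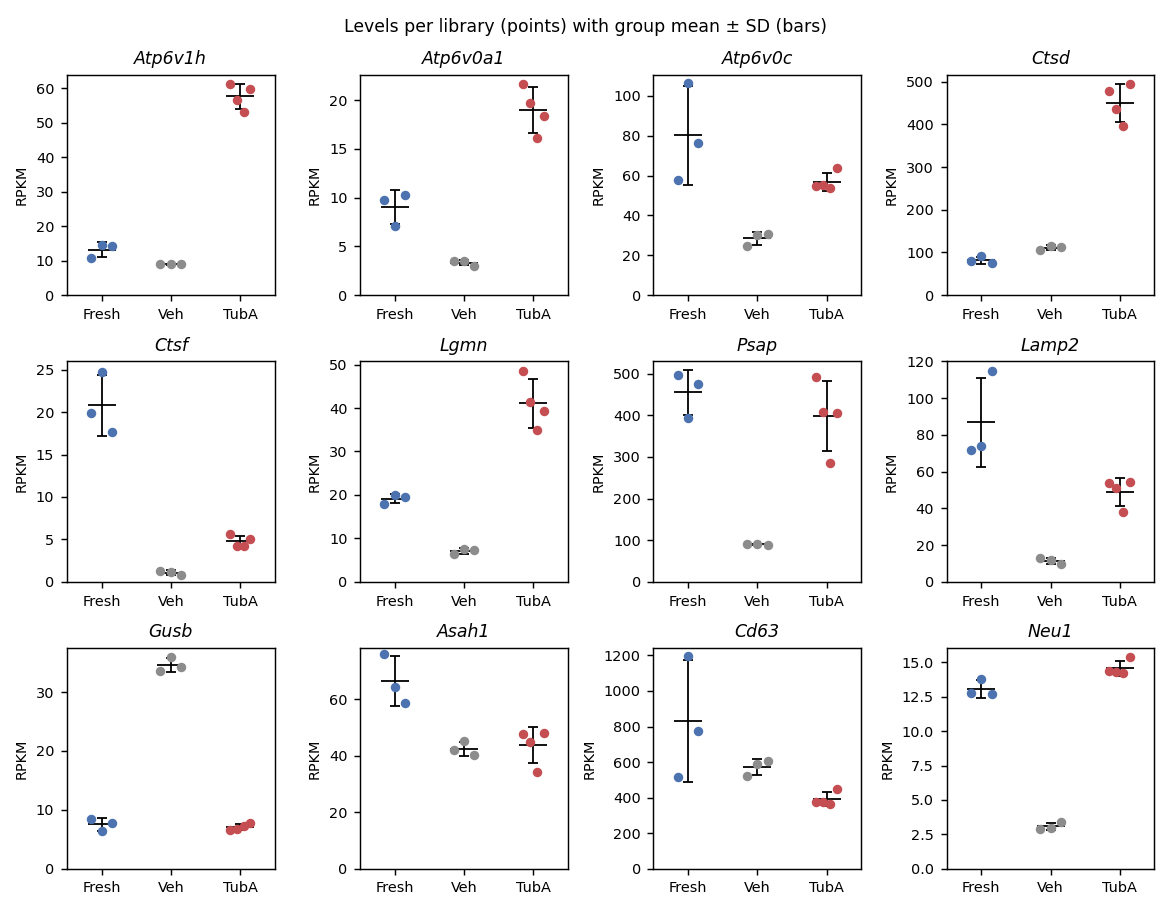
RPKM of 12 of the genes in each library (points) with the group mean ± SD, each panel on its own axis from 0. Vehicle libraries are lowest in most panels, while Gusb is highest in vehicle, Asah1 is low in both cultures and Cd63 is lowest with Tubastatin A.

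Set against fresh cells, the Tubastatin A group was not uniform. Called higher were 9 pump genes (Atp6v1b2, Atp6v1c1, Atp6v1d, Atp6v1e1, Atp6v1g1, Atp6v1h, Atp6v0a1, Atp6v0a2 and Atp6v0b), 8 enzymes (Ctsa, Ctsd, Lgmn, Tpp1, Glb1, Man2b1, Sgsh and Lipa), Grn, Lamp1 and Scarb2. Called lower were Atp6v0c, Atp6ap1, the 6 enzymes Ctsb, Ctsf, Ctsl, Gla, Hexa and Asah1, and the membrane proteins Lamp2 and Cd63. Among those lower, Ctsf and Gla also passed under equal sums, Lamp2 and Cd63 had a negative change that did not pass, and the others turned. The 14 that did not pass were Atp6v1a, Atp6v1f, Atp6v0d1, Atp6v0e, Atp6ap2, Ctsz, Gaa, Gusb, Naglu, Neu1, Ppt1, Npc2, Psap and Npc1.

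The pump was set against the enzymes as the mean log2(RPKM + 1) per library, as a description with no test. For the 16 pump genes this mean was 4.97, 5.31 and 5.13 in fresh cells, 4.54, 4.65 and 4.58 with vehicle and 5.83, 5.79, 5.66 and 5.92 with Tubastatin A. For the 20 enzymes it was 4.58, 4.61 and 4.54, then 3.71, 3.76 and 3.66, then 4.90, 4.74, 4.58 and 4.87. On the authors' scale, pump means in Tubastatin A libraries were above all fresh ones, whereas enzyme means overlapped between fresh and Tubastatin A. As a share of the summed RPKM, the enzymes did not overlap either (0.2715% to 0.2932% in fresh and 0.5283% to 0.6313% in Tubastatin A libraries). The mean of the enzymes minus that of the pump was -0.392, -0.695 and -0.594 in fresh libraries, between -0.918 and -0.828 with vehicle and between -1.09 and -0.925 with Tubastatin A. On the authors' scale, the pump mean thus changed by -0.547 in vehicle and 1.21 from vehicle to Tubastatin A, and the enzyme mean by -0.865 and 1.06. Without Gusb, left out after its values were seen, the difference between enzymes and pump changed by 0.016 from vehicle to Tubastatin A instead of -0.153, so the sign of that step rested on Gusb. From fresh to Tubastatin A it changed by -0.470 with Gusb and -0.456 without. Within the pump, the V1 mean changed by -0.128 in vehicle and the V0 mean by -0.841, and from vehicle to Tubastatin A they changed by 1.19 and 1.23.

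Taken as a share of the summed RPKM of the table, which does not depend on library scaling, pump genes made up 0.195% in fresh cells, 0.196% with vehicle and 0.436% with Tubastatin A. The enzymes made up 0.280%, 0.218% and 0.584%, and all 44 genes 0.874%, 0.734% and 1.503%. For each of these shares the Tubastatin A libraries were above all others.

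Other genes of the lysosomal pathway, from lists chosen by function, were counted in the same fit, on the authors' scale only. Over all genes, 32.0% were higher and 35.0% lower with vehicle against fresh, and 29.6% and 29.7% with Tubastatin A over vehicle. Of 34 further hydrolases, 24 were lower and 3 higher in vehicle, and 23 were higher and 4 lower with Tubastatin A over vehicle, with medians of -0.83 and 0.69. Scpep1, a serine carboxypeptidase, went from 144.7 ± 7.28 to 44.6 ± 2.10 RPKM with vehicle and to 241 ± 35.8 with Tubastatin A, and Manba, the beta-mannosidase, from 1.85 ± 0.235 to 0.486 ± 0.0521 and 6.64 ± 1.31. Dnase2a, the acid DNase, rose by 1.89 over vehicle. Of 21 further membrane proteins, 15 were higher and 2 lower over vehicle, among them Ostm1 (1.42), a subunit of the chloride transporter ClC-7, the cystine exporter Ctns (1.23) and the amino acid sensor Slc38a9 (0.92).

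Of 10 isoform genes of the pump outside the 16, 3 were measured. With vehicle against fresh, Atp6v0e2 and Atp6v1g2 were lower (-0.57 and -0.47, adjusted p = 6.7e-04 and 0.0010) and Tcirg1 did not pass (-0.28, adjusted p = 0.082). Tcirg1, the a3 isoform known from osteoclasts, and Atp6v1g2 were lower with Tubastatin A than with vehicle (-0.47 and -0.46, adjusted p = 0.0063 and 9.9e-04), and Atp6v0e2 did not pass (0.11, adjusted p = 0.40). Mean levels in fresh, vehicle and Tubastatin A were 29.2, 23.6 and 16.8 RPKM for Tcirg1. Those of Atp6v1g2 were very low (1.06, 0.483 and 0.0753 RPKM), where the pseudocount understates a change. Among 8 assembly factors and regulators of the pump, 3 were higher and 2 lower over vehicle, close to the shares over all genes (29.6% and 29.7%). Dmxl2 and Dmxl1, of the RAVE-like complex that joins V1 to V0, and their partner Rogdi rose by 0.85, 0.41 and 0.42, and the chaperone of V0 assembly Vma21 was lower (-0.46). Ncoa7, which binds the pump, had 29.9 ± 6.79 RPKM in fresh cells, 1.16 ± 0.0107 with vehicle and 0.955 ± 0.129 with Tubastatin A. Of 14 genes for delivery of enzymes 7 were higher and 1 lower over vehicle, against 29.6% and 29.7% of all genes. Those higher included Sort1 (0.97), Ap3b1 (0.70) and the mannose 6-phosphate receptor M6pr (0.65), and Ap1m1 was lower (-0.49).

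Of 16 regulators, 8 were higher and 1 lower over vehicle, against 29.6% and 29.7% of all genes. Tfeb had 8.29 ± 0.842 RPKM in fresh cells, 2.60 ± 0.0604 with vehicle and 4.32 ± 0.206 with Tubastatin A, and fell by 1.36 in vehicle (SE 0.11, adjusted p = 5.6e-07). Tfe3 had 20.4 ± 2.89, 9.97 ± 0.198 and 13.3 ± 0.403 RPKM, with a fall of 0.96 in vehicle (SE 0.11, adjusted p = 1.2e-05). Fnip1 and Flcn, partners in the complex that controls the Rag GTPases, rose over vehicle by 1.67 and 0.71, and Rragd, one of these GTPases, by 1.11. Lamtor1, the membrane anchor of the Rag complex, was lower (-0.89).

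The inhibitor's target Hdac6 measured 7.69 ± 0.916 RPKM in fresh cells, 6.16 ± 0.313 with vehicle and 6.60 ± 0.717 with Tubastatin A, and no comparison passed (adjusted p = 0.074, 0.58 and 0.17). An enzyme inhibitor need not change this transcript, so it does not check the labels. Depth, as reads recovered for the genes of the table, was 37.5M to 55.3M per library, and the lowest count of any of the 44 genes in a library was 92 reads. Replicate animals differed by a median coefficient of variation of 17.7% over the 44 genes in fresh cells, 7.52% with vehicle and 11.8% with Tubastatin A. Fresh replicate 2 was the highest of its group for 27 of the 44 genes, and Tubastatin A replicate 3 the lowest for 35 and replicate 4 the highest for 25. In fresh replicate 2, the deviation from its group went with shorter exon length (Spearman -0.326 over the 44 genes and -0.500 over 10269 genes, across genes, which are not independent replicates). Other libraries also showed such trends, in either direction. In the same order, values were 0.511 and 0.484 in vehicle replicate 1 and 0.412 and 0.389 in fresh replicate 3. They were -0.269 and -0.435 in Tubastatin A replicate 4, and weaker in Tubastatin A replicate 2 (0.0224 and 0.159). The part of fresh replicate 2 in the comparisons with fresh cells was not tested beyond leaving that library out.

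Marker sums differed between groups for several cell types. Muscle stem cell markers (8 of 8 measured, Pax7 among them) summed to 2537 to 2753 RPKM in fresh, 449 to 473 in vehicle and 282 to 301 in Tubastatin A libraries. With Tubastatin A over vehicle, 5 of these 8 were called lower and 2 higher, against 29.7% and 29.6% of all genes. Chodl was among those higher (0.69, adjusted p = 5.0e-04), and Sdc4, the largest term of the sum, did not pass (-0.04, adjusted p = 0.89). Myeloid markers, from cells rich in lysosomes, were measured for 3 of 14 genes (Ptprc, Csf1r and the others were not in the expression table) and summed to 12.2 to 25.3, 0.864 to 1.49 and 4.65 to 5.77 RPKM. Most of the myeloid sum in the cultures was Cd14, while Lyz2 was at 3.47 to 5.28 RPKM in fresh cells, at most 0.0177 with vehicle and 0.0731 to 0.145 with Tubastatin A. Endothelial markers (8 of 8) summed to 44.04 to 56.1, 1.85 to 2.56 and 5.35 to 5.81 RPKM. With Tubastatin A over vehicle, 1 of them was called higher and 7 did not pass, against 29.6% of all genes higher. The 1 was Tek, with 0.879 ± 0.378 RPKM in vehicle and 4.21 ± 0.59 with Tubastatin A (adjusted p = 1.3e-04). Fibroadipogenic markers (7 of 7) summed to 212 to 236, 5.77 to 8.12 and 4.35 to 9.01, and pericyte and smooth muscle markers (6 of 6) to 198 to 244, 175 to 239 and 11.5 to 62.0. Most of this last sum was Acta2 in every group (183 to 233, 174 to 239 and 10.3 to 60.8 RPKM). Of these 6 markers, 5 were called lower with vehicle against fresh and 1 did not pass, against 35.0% of all genes lower. Myofibre markers (7 of 8) summed to 48.6 to 57.3 and 16.8 to 24.7 in fresh and vehicle libraries and 5.03 to 385 with Tubastatin A, where replicate 2 stood apart. The part of these markers in the changes of lysosomal genes was not tested. Without Tubastatin A replicate 2, 40 of the 44 genes were called higher than vehicle.

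Some genes share sequence with others. In 7 of the 44 (Atp6v0b, Ctsa, Ctsb, Ctsd, Ctsl, Hexa and Sgsh) over 10% of exon bases lie in an exon of another gene, with the largest share on 1 strand for Ctsd (34.4%, same strand). Use of strand in counting is not given in the sources used here, so reads there may not be separable. Atp6v0a1 and Naglu are neighbours on chromosome 11 (chr11:101009452-101063719 and chr11:101070012-101077672, both plus strand). Gaa and Sgsh lie farther apart on the same chromosome (chr11:119267887-119285454, plus, and chr11:119343425-119355536, minus). The 44 genes otherwise lie on 19 chromosomes.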

How the data were processed

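The authors deposited RPKM of 12803 genes in 10 libraries, with each library a separate animal per the labels. Libraries were made with SMART-Seq v4 from 5 ng RNA and the NuGEN Ovation Ultralow system, with paired reads of 150 bp, per the labels' protocols. The submitters' processing notes name STAR, Trim Galore, edgeR, featureCounts (Subread) and mm10, with no version.

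RPKM times union exon length (GENCODE M21) and a factor per library gave whole reads within 0.05 reads for 11887 genes (92.8%), which showed depth and the authors' scaled library sizes. A read in a gene of 1 kb was worth 0.016 to 0.0339 RPKM. log2(RPKM + 1) was fitted with limma 3.58.1 (R 4.3.3, trend, a common model of the 3 groups), without a filter, and was tested on simulated data. Python 3.11.15 was used for summaries. All 44 members may be named, with at most 4 genes of lowest p from each other list and comparison, Hdac6 and leading markers. Members and lists were chosen with earlier results of these data known. Alternatives were other pseudocounts, a filter, scalings, voom on recovered reads, fits of 2 groups, a replicate block and each library left out.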

Additional observations from a re-analysis of the deposited data

Results flagged for a closer look

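In the 4 Tubastatin A libraries, replicate 4 stood apart from the other 3 for 4 genes, with a gap to the next library that exceeded Dixon's critical value for the share of the whole range. Its RPKM were 124.8 for Atp6v0b, 63.76 for Atp6v0c, 15.39 for Neu1 and 448.7 for Cd63, each the highest of the group. Chance gives about 1 such value in 20 groups, and 58 were checked. The cause was not tested.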

How the results depend on the processing

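For Tubastatin A against vehicle, calls of all 44 genes were the same under both other scalings. Scaling to equal sums moved the counts against fresh: with vehicle 12 genes were higher, and with Tubastatin A 36 were higher and 2 lower. It reversed, with vehicle against fresh, Atp6v1e1 (0.45), Atp6v1h (0.0572), Ctsa (0.35), Tpp1 (0.54), Ppt1 (0.24), Npc2 (0.0654) and Lamp1 (0.24), and, with Tubastatin A against fresh, Atp6v0c (0.26), Atp6ap1 (0.33), Ctsb (0.33), Ctsl (0.0860), Gusb (0.55), Hexa (0.14), Asah1 (0.12), Psap (0.51) and Npc1 (0.39). With only the 2 groups compared, or by voom, 2 genes were lower with Tubastatin A than with vehicle (Gusb and Cd63). The enzyme mean minus the pump mean changed in vehicle by -0.184 with a pseudocount of 5 and by -0.472 without Gusb, and from vehicle to Tubastatin A by -0.0731 with a pseudocount of 0.1, by -0.237 with 5 and by 0.016 without Gusb, which reversed it. Leaving out each library gave 2 to 5 genes higher (5 without fresh replicate 2) and 26 to 30 lower for vehicle against fresh, 38 to 41 higher (38 without vehicle replicate 3, where Atp6v1g1, Atp6v0a2 and Naglu did not pass) and 1 to 2 lower for Tubastatin A against vehicle, and 17 to 21 higher and 7 to 10 lower for Tubastatin A against fresh. The 2 pump genes lower than fresh with Tubastatin A (Atp6v0c and Atp6ap1) did not pass without fresh replicate 2 or 3, nor without Tubastatin A replicate 2 or 3, nor with only the 2 groups or median-of-ratios scaling. Genes called over the table then ranged from 7868 to 8912, 6588 to 8341 and 7768 to 8540, and the change of the enzyme mean minus the pump mean from -0.385 to -0.233, -0.188 to -0.128 and -0.538 to -0.386, in the same order of comparisons. Correlations of deviations lay between -0.190 and 0.376 for libraries of the same number and between -0.514 and 0.403 for different numbers. For Tubastatin A against vehicle, same-number values were 0.376, 0.036 and 0.300, and the others lay between -0.367 and 0.088. These values do not settle whether replicate numbers pair the samples. With the replicate block, 3 genes were higher and 29 lower in vehicle, 40 higher and 1 lower with Tubastatin A over vehicle (Atp6v1g1 did not pass, 0.39, adjusted p = 0.095), and 18 higher and 10 lower against fresh. Where not stated, the cause was not tested. Every gene of the 44 had 92 reads or more in each library. Each library is from 1 animal, so spread between animals and between library preparations cannot be told apart.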
